A study of Homo sapiens with 12 samples.

Results

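The genes described here are 10 adhesion and homing receptors through which leukemic blasts hold on to the bone marrow niche: the chemokine receptor gene CXCR4, the hyaluronan receptor gene CD44, the selectin ligand gene SELPLG (which encodes PSGL-1), and 7 integrin chain genes, ITGA4, ITGA5, ITGAL, ITGAM, ITGAX, ITGB1 and ITGB2. They were chosen by name, with earlier results of these data known. All 10 were found among the 57353 gene names of the count table, and all 10 passed the filter on low counts (a mean count and a mean CPM of at least 1) that left 12998 genes to be tested.

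CXCR4 binds the stromal chemokine CXCL12 and guides blasts to the marrow, CD44 binds hyaluronan and selectins, and PSGL-1, once it carries the right glycans, lets cells tether and roll on endothelial selectins. Firm adhesion then depends on integrins, each a pair of an alpha and a beta chain. The ITGB1 chain pairs with ITGA4 or ITGA5 and binds VCAM1 and fibronectin, while the leukocyte chain ITGB2 pairs with ITGAL (LFA-1), ITGAM (Mac-1) or ITGAX and binds ICAMs and other ligands.

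MOLM-13, an established acute myeloid leukemia (AML) cell line that carries an internal tandem duplication of the receptor kinase gene FLT3 (its genotype is otherwise labelled WT), was cultured in RPMI medium with fetal bovine serum or in hBMSC-CM, a mixture of RPMI and filtered medium conditioned by the human bone marrow stromal line HS-5. In each medium the cells received either DMSO vehicle or 3 nM quizartinib (AC220), an inhibitor of FLT3, for 15 hr. Poly-A RNA was sequenced in 3 libraries from each of the 4 groups, 12 libraries in all. The comparisons address how the drug and the stromal medium, alone and in combination, move the mRNAs of these receptors. A single cell line was used, and the stromal cells themselves were absent from the cultures, so contact with stroma is not part of the model. The study describes its replicates in general as biological, and the labels do not say how the replicate cultures were set up, so the p-values measure the spread between these samples.

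Total counts ran from 19966546 to 31546104 per library, so that 3 counts corresponded to 0.0951 to 0.150 CPM, the count relative to the library's total. All 9 AML or myeloid marker genes were measured, with a summed level of 1278 to 2387 CPM per library. Of 12 marker genes of stromal cells such as HS-5, 6 (COL3A1, COL5A1, DCN, LUM, POSTN and THY1) had no count in any library, and 9 were below the filter. The summed stromal marker level was 5.67 to 6.41 CPM in RPMI with vehicle, 12.9 to 15.1 CPM in RPMI with quizartinib, 5.6 to 6.7 CPM in hBMSC-CM with vehicle and 8.55 to 9.57 CPM in hBMSC-CM with quizartinib. COL1A1 and TAGLN were called higher with the drug in both media; their part in the results below was not tested. Mitochondrial genes took 0.683 to 0.790% of counts in RPMI with vehicle, 1.02 to 1.10% in RPMI with quizartinib, 0.458 to 0.614% in hBMSC-CM with vehicle and 0.683 to 0.947% in hBMSC-CM with quizartinib, and this share was not tested against the results either. Because whole cultures were sequenced, fewer cells of a kind and less RNA per cell cannot be told apart. Levels are given as CPM scaled by TMM factors, and fold changes, tests and standard errors from the quasi-likelihood model of edgeR, with p-values adjusted by Benjamini and Hochberg's method over all 12998 genes and calls made at an adjusted p under 0.05.

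With quizartinib in RPMI, CXCR4, ITGAL and SELPLG rose more than the other members, ITGB2 and ITGAM fell, and the ITGB1 chain and its partners moved little. All 10 genes were called, 6 higher and 4 lower, in a comparison in which 79.3% of all tested genes were called (40.1% higher and 39.2% lower). The median size of the members' log2 fold changes was 0.74, against 0.48 over all tested genes. In hBMSC-CM, 7 of the 10 were called with quizartinib, 4 higher and 3 lower, where 67.1% of all tested genes were, and the median size was 0.38 against 0.30 over all genes. The difference between the drug responses in the 2 media (the interaction) was called for 8 of the 10, 5 with a lower and 3 with a higher value in hBMSC-CM, against 45.2% of all tested genes. With quizartinib present, hBMSC-CM differed from RPMI for 8 members, 5 higher and 3 lower (69.8% of all tested genes were called). With vehicle it differed for 6 members, 4 higher and 2 lower (32.1% of all tested genes). With the drug in RPMI, drug and vehicle libraries did not overlap for 81.1% of all tested genes and for 10 members. In hBMSC-CM this held for 68.4% of genes and 7 members. Between the media it held for 71.5% and 8 members with quizartinib, and for 44.65% and 6 members with vehicle. Monocyte maturation markers moved beside these genes: with the drug in RPMI, 7 of the 9 that were tested rose, CSF1R from 24.5 ± 3.62 to 99.2 ± 3.44 CPM (SD, n = 3) and CD86 among them, and 2, FCGR1A and S100A9, fell. In hBMSC-CM, 8 of the 9 rose with the drug, and the ninth, FCGR1A, was not called. Between the media, 7 of the 9 were higher and 1 lower in hBMSC-CM with vehicle (median log2 0.87), and 6 were higher and 1 lower with quizartinib (median 1.10). S100A9 was among the higher ones, by log2 values of 2.38 and 3.70. The part of maturation in the members' changes was not tested.

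**Figure D1:**
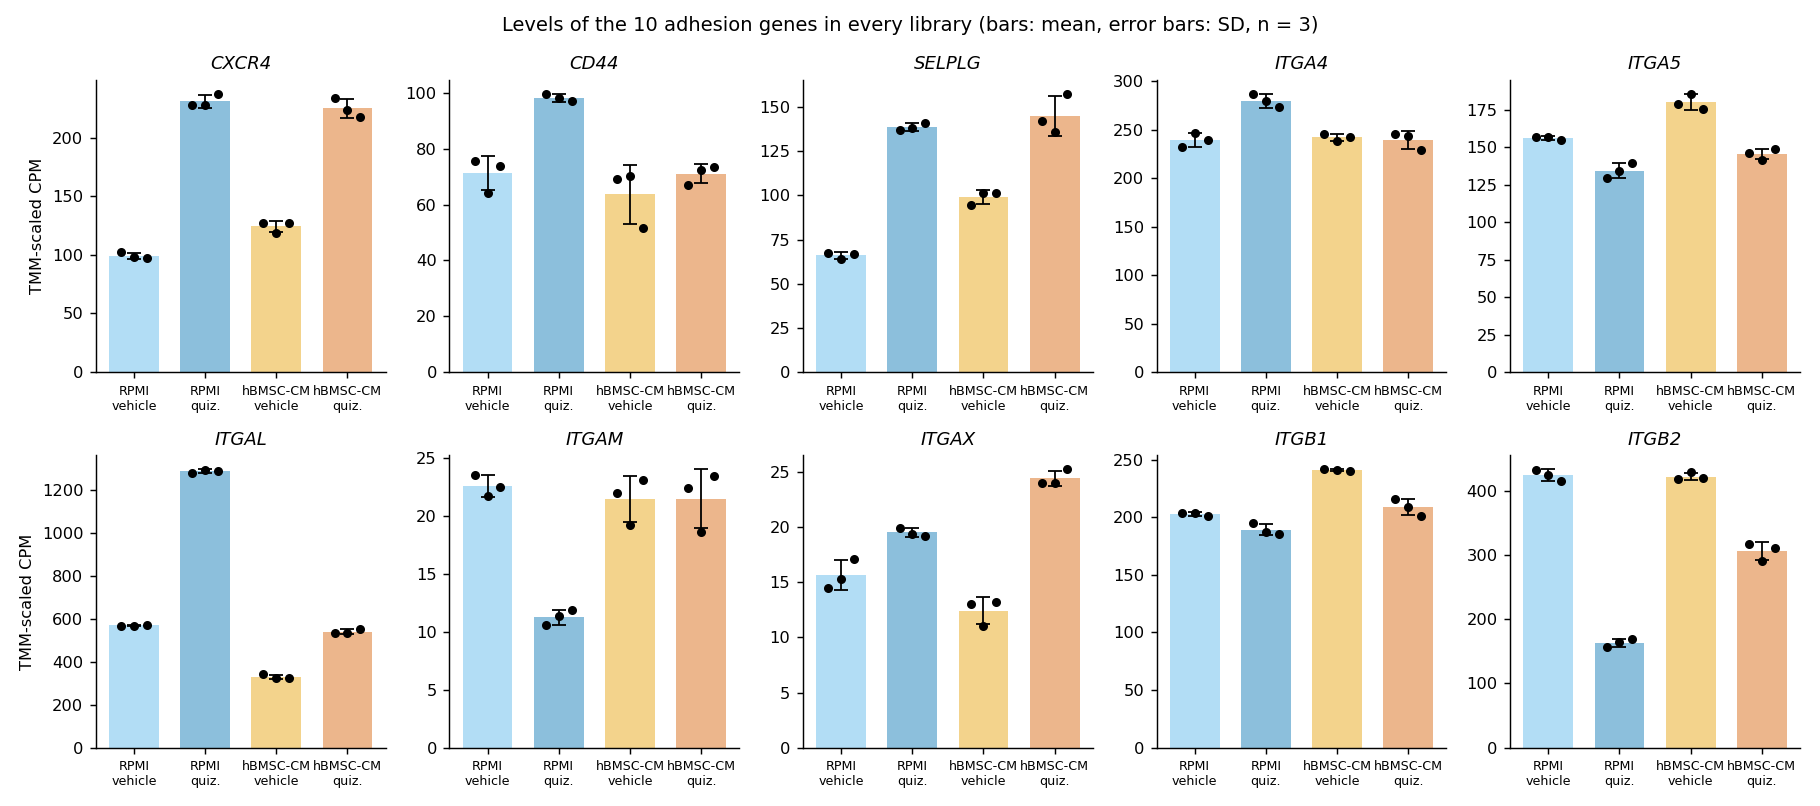
TMM-scaled CPM of each of the 10 adhesion genes (y axis, linear from 0) in the 4 groups (x axis; quiz., quizartinib), with points for the 3 libraries, bars for the mean and error bars for the SD. CXCR4 and SELPLG stood high in both quizartinib groups, ITGAL stood at 1278 to 1295 CPM in RPMI with quizartinib and at 572.8 CPM or less elsewhere, and ITGAM and ITGB2 were lowest in RPMI with quizartinib.

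CXCR4 (chr2:136114349-136119177, minus strand, build GRCh38) encodes the receptor for CXCL12 and has 2 exons in its canonical transcript. Its level was 102, 98.1 and 97.2 CPM in RPMI with vehicle, 228, 227 and 238 CPM in RPMI with quizartinib, 127, 119 and 127 CPM in hBMSC-CM with vehicle, and 233, 224 and 218 CPM in hBMSC-CM with quizartinib. Every quizartinib library lay above every vehicle library, the vehicle libraries of the 2 media did not overlap, and the quizartinib libraries of the 2 media did. With the drug CXCR4 rose 2.33-fold in RPMI (log2 fold change 1.22 ± 0.043, SE, adjusted p = 2.43e-16) and 1.81-fold in hBMSC-CM (0.86 ± 0.043, adjusted p = 4.74e-13). The stromal medium alone raised it 1.25-fold (log2 0.33, adjusted p = 9.01e-06), and in the presence of the drug it made a difference of -0.04 on the log2 scale, with a 95% interval from -0.12 to 0.051 (adjusted p = 0.447). Set against the response in RPMI, that in hBMSC-CM differed by a log2 value of -0.36 (adjusted p = 5.03e-05).

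CXCL12, the ligand of CXCR4, had no count in any of the 12 libraries, which allows up to 3 counts, or 0.150 CPM in the shallowest library (counting error only). These counts are mRNA of the cultured cells and do not measure CXCL12 protein that the stromal medium may have held. ACKR3, the other CXCL12 receptor, had at most 2 counts in a library and was not tested. Of 19 genes of this axis, CXCL12 and ACKR3 included, 16 were tested. With quizartinib in RPMI 4 rose and 9 fell (40.1% and 39.2% of all tested genes), and the median log2 value was -0.22 (0.02 over all genes). CD74, the invariant chain and a receptor of MIF that can pair with CXCR4, rose from 336 ± 17.2 to 739 ± 29.0 CPM. ITCH, a ubiquitin ligase that sends CXCR4 to degradation, rose from 146 ± 0.351 to 199 ± 5.69 CPM. RGS16, which shortens G-protein signalling, fell from 65.7 ± 2.76 to 3.46 ± 0.521 CPM in RPMI (log2 -4.25, adjusted p = 1.20e-20) and from 112 ± 1.20 to 25.8 ± 1.44 CPM in hBMSC-CM (log2 -2.12). MIF, a cytokine that also binds CXCR4, fell from 96.3 ± 7.31 to 42.0 ± 6.71 CPM in RPMI. Between the media, 9 of the 16 were higher and 4 lower in hBMSC-CM when the drug was present (35.5% and 34.3% of all tested genes).

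Promoter windows from RefSeq (build GRCh38.p14, 250 bases before to 50 after the most upstream listed start) could be matched for 6 of the 10 members. The letters GAGGAA, the core that PU.1 and related ETS factors of myeloid cells recognise, occurred on either strand in 3 of these 6 windows, those of CXCR4, ITGAM and ITGB1, and in 27.9% of all 35116 promoter windows. A stretch of 100 bases is shown for CXCR4, which rose with the drug, and for ITGAM, which fell with it in RPMI, with GAGGAA or its reverse complement in capitals; both run 5′ to 3′ on the gene's strand, from base -150 to base -51 before the start, and lie outside the exons annotated for these genes. A match describes these letters only and does not mark a bound site.
CXCR4 (chr2:136118200-136118299, minus strand): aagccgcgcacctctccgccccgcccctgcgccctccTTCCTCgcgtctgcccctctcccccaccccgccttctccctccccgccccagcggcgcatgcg
ITGAM (chr16:31259825-31259924, plus strand): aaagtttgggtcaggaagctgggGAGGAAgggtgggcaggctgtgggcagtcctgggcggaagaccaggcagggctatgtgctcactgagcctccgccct
The CXCR4 window held 27 CpG dinucleotides and 66.7% G or C, and the ITGAM window 2 CpG dinucleotides and 53.3% G or C, against medians of 14 and 58.7% over all windows. The AP-1 letters TGACTCA were found only in the ITGA5 window among the 6 (4.95% of all windows held them). The E-box CACGTG (7.26% of all windows) and the STAT letters TTCNNNGAA (7.66%) were not found in these 6 windows.

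SELPLG (chr12:108621895-108633894, minus strand) encodes PSGL-1, the mucin that selectins bind. Its level was 67.7, 63.7 and 66.8 CPM in RPMI with vehicle, 137, 138 and 141 CPM in RPMI with quizartinib, 94.6, 101 and 101 CPM in hBMSC-CM with vehicle, and 142, 136 and 158 CPM in hBMSC-CM with quizartinib. As for CXCR4, all quizartinib libraries lay above all vehicle libraries, and hBMSC-CM lay above RPMI among the vehicle libraries without overlap. SELPLG rose 2.10-fold with the drug in RPMI (log2 1.07 ± 0.051, adjusted p = 3.85e-14) and 1.47-fold in hBMSC-CM (0.55 ± 0.050, adjusted p = 4.73e-09), a difference of -0.52 (adjusted p = 4.74e-06). The stromal medium alone raised it 1.5-fold (log2 0.58, adjusted p = 3.31e-08). With the drug present, the media differed by a log2 value of 0.06 (95% interval -0.038 to 0.167, adjusted p = 0.247), or by 0.14 (adjusted p = 0.0174) when no filter on low counts was applied.

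PSGL-1 binds selectins only after glycosyltransferases have dressed it. Of 23 genes of selectins and of the making of their ligands, 18 were tested. With quizartinib in RPMI 6 rose and 7 fell (median log2 -0.11), where 40.1% of all tested genes rose and 39.2% fell. GCNT1, which starts the branched glycans that PSGL-1 needs, rose from 25.9 ± 1.06 to 61.5 ± 1.34 CPM. B4GALT1, a galactosyltransferase, rose from 32.1 ± 2.39 to 41.1 ± 1.22 CPM. FUT7, the fucosyltransferase that completes sialyl Lewis x, fell from 21.7 ± 1.69 to 6.63 ± 0.333 CPM in RPMI (log2 -1.70, adjusted p = 3.06e-14) and from 25.5 ± 1.27 to 12.5 ± 0.251 CPM in hBMSC-CM (log2 -1.03). ST3GAL4, a sialyltransferase, fell from 51.6 ± 1.57 to 20.7 ± 0.437 CPM in RPMI. SELPLG and GCNT1 were thus higher with the drug while FUT7 and ST3GAL4 were lower, in both media. Their relatives on the list differed from them. ST3GAL3, at a low level, rose in RPMI (log2 0.39, adjusted p = 0.00738) and in hBMSC-CM (0.38, adjusted p = 0.0219). ST3GAL6 was called only in hBMSC-CM, where it rose (0.37, adjusted p = 7.92e-04). FUT4 fell in RPMI (-0.40, adjusted p = 3.39e-08) and was not called in hBMSC-CM (-0.03, adjusted p = 0.569). With the drug present, hBMSC-CM had 8 of the 18 genes higher and 3 lower (35.5% and 34.3% of all tested genes).

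CD44 (chr11:35138882-35232402, plus strand) encodes the main hyaluronan receptor, whose alternatively spliced forms are summed in a count per gene. Its level was 75.5, 64.2 and 73.9 CPM in RPMI with vehicle, 99.8, 98.2 and 97.0 CPM in RPMI with quizartinib, 69.1, 70.3 and 51.6 CPM in hBMSC-CM with vehicle, and 67.2, 72.6 and 73.4 CPM in hBMSC-CM with quizartinib. Only the RPMI quizartinib libraries stood apart from all the others, and replicate 3 of hBMSC-CM with vehicle was the lowest of the 12. CD44 rose 1.38-fold with the drug in RPMI (log2 0.47 ± 0.080, adjusted p = 1.86e-05). In hBMSC-CM the difference with the drug was 0.15 ± 0.082 (95% interval -0.017 to 0.325, adjusted p = 0.104). That value fell to 0.03 (adjusted p = 0.710) without replicate 3 of hBMSC-CM with vehicle and was called, at 0.22, without replicate 1 (adjusted p = 0.0349) or replicate 2 (adjusted p = 0.0383) of that group. The interaction of -0.31 (adjusted p = 0.0311) lost its call, at -0.24 to -0.27, without replicate 2 of RPMI with vehicle, replicate 1 or replicate 2 of hBMSC-CM with vehicle or replicate 1 of hBMSC-CM with quizartinib, and was -0.44 (adjusted p = 1.01e-04) without replicate 3 of hBMSC-CM with vehicle. Drug-treated cells had less CD44 mRNA in the stromal medium, with a log2 difference of -0.47 (adjusted p = 2.44e-05).

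Of 19 genes of hyaluronan and CD44 function, 12 were tested. With quizartinib in RPMI 2 rose and 9 fell (40.1% and 39.2% of all tested genes), with a median log2 of -0.40, against 0.02 over all genes. VCAN, a proteoglycan that binds hyaluronan and also a monocyte marker, rose from 9.10 ± 0.584 to 12.5 ± 0.978 CPM, and it was higher in hBMSC-CM, at 21.7 ± 2.21 CPM with vehicle and 37.0 ± 0.368 CPM with quizartinib. ADAM10, a protease that sheds CD44, rose from 194 ± 2.49 to 258 ± 8.80 CPM. EZR and MSN encode the ERM proteins that tie CD44 and PSGL-1 to the actin cortex. EZR fell from 339 ± 15.1 to 180 ± 11.3 CPM in RPMI (log2 -0.91, adjusted p = 5.99e-13). MSN fell from 1756 ± 56.8 to 1077 ± 22.1 CPM in RPMI and from 1850 ± 51.1 to 1290 ± 34.1 CPM in hBMSC-CM. In hBMSC-CM 4 of the 12 were called higher with the drug and 8 lower (33.4% and 33.7% of all tested genes).

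With the drug in RPMI, the ITGB1 integrin chains had smaller log2 fold changes than the other members. ITGA4 (chr2:181457202-181538940, plus strand), the alpha chain of VLA-4, was at 232, 246 and 239 CPM in RPMI with vehicle, 287, 279 and 273 CPM in RPMI with quizartinib, 246, 238 and 243 CPM in hBMSC-CM with vehicle, and 245, 244 and 229 CPM in hBMSC-CM with quizartinib. The RPMI quizartinib libraries lay above the other 3 groups, which overlapped one another. ITGA4 rose 1.17-fold with the drug in RPMI (log2 0.23 ± 0.041, adjusted p = 3.96e-05), and the difference in hBMSC-CM was -0.02 (95% interval -0.103 to 0.069, adjusted p = 0.733). The interaction was -0.24 (adjusted p = 0.00189), or -0.17 (adjusted p = 0.0579) without a filter on low counts, a setting under which the rise in RPMI was 0.12. With the drug present, ITGA4 was lower in hBMSC-CM by -0.23 (adjusted p = 5.61e-05).

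ITGA5 (chr12:54395261-54419266, minus strand), the alpha chain of the fibronectin receptor VLA-5, was at 157, 157 and 155 CPM in RPMI with vehicle, 130, 134 and 139 CPM in RPMI with quizartinib, 179, 186 and 175 CPM in hBMSC-CM with vehicle, and 146, 142 and 149 CPM in hBMSC-CM with quizartinib. None of the 4 groups overlapped another. ITGA5 fell with the drug by 0.22 on the log2 scale in RPMI (adjusted p = 6.00e-05) and by 0.31 in hBMSC-CM (adjusted p = 1.22e-06), and the interaction of -0.09 was not called (95% interval -0.210 to 0.030, adjusted p = 0.218). The stromal medium raised it by 0.20 with vehicle (adjusted p = 6.10e-04). Its rise of 0.11 with the drug present (adjusted p = 0.0177) lost its call without replicate 1 (0.08) or replicate 2 (0.11) of RPMI with quizartinib, without replicate 3 of hBMSC-CM with quizartinib (0.11), and with upper-quartile factors (0.07).

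ITGB1 (chr10:32887273-33005792, minus strand), the shared beta chain, was at 204, 204 and 201 CPM in RPMI with vehicle, 195, 187 and 186 CPM in RPMI with quizartinib, 242, 241 and 240 CPM in hBMSC-CM with vehicle, and 216, 209 and 202 CPM in hBMSC-CM with quizartinib. The hBMSC-CM vehicle libraries were the highest, and hBMSC-CM with quizartinib overlapped RPMI with vehicle. The drug lowered ITGB1 in hBMSC-CM, by 0.21 on the log2 scale (adjusted p = 9.18e-05). In RPMI its value was -0.10 (adjusted p = 0.0253); this call was lost without any 1 of the 3 RPMI vehicle libraries or without replicate 2 or replicate 3 of RPMI with quizartinib (-0.10 to -0.08), and the value was 0.00 with upper-quartile factors. Without a filter on low counts the value in RPMI was -0.20 (adjusted p = 1.03e-04). The stromal medium raised ITGB1 by 0.25 with vehicle (adjusted p = 5.93e-05) and by 0.14 with quizartinib (adjusted p = 0.00331). The interaction of -0.11 was not called (95% interval -0.223 to 0.008, adjusted p = 0.121). Small changes such as those of ITGA5 and ITGB1 moved by more than 1.5 times with the scaling: with library size as the only factor, ITGA5 was -0.13 in RPMI and -0.20 in hBMSC-CM, and ITGB1 was -0.01 in RPMI and -0.10 in hBMSC-CM.

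Within the ITGB2 integrins, the drug in RPMI raised ITGAL and ITGAX and lowered ITGAM and ITGB2. ITGAL (chr16:30472658-30523567, plus strand), the alpha chain of LFA-1, which binds ICAM1, was at 569, 568 and 573 CPM in RPMI with vehicle, 1278, 1295 and 1291 CPM in RPMI with quizartinib, 343, 323 and 324 CPM in hBMSC-CM with vehicle, and 532, 536 and 552 CPM in hBMSC-CM with quizartinib. No group overlapped another, although hBMSC-CM with quizartinib and RPMI with vehicle were neighbours (log2 difference -0.08, 95% interval -0.161 to 0.007, adjusted p = 0.103). The drug raised ITGAL 2.26-fold in RPMI (log2 1.18 ± 0.040, adjusted p = 1.45e-16) and 1.64-fold in hBMSC-CM (0.71 ± 0.041, adjusted p = 3.66e-12), and these responses differed by -0.47 (adjusted p = 9.08e-07). ITGAL was the member that hBMSC-CM lowered most, by 0.79 on the log2 scale with vehicle (adjusted p = 7.82e-12) and by 1.25 with quizartinib (adjusted p = 1.94e-16). The intronic microRNA gene MIR4518, which lies within ITGAL on the same strand, had 34 counts at most.

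ITGB2 (chr21:44885953-44931989, minus strand), the beta chain without which no LFA-1 or Mac-1 reaches the cell surface, was at 433, 425 and 415 CPM in RPMI with vehicle, 157, 164 and 169 CPM in RPMI with quizartinib, 418, 428 and 419 CPM in hBMSC-CM with vehicle, and 317, 291 and 310 CPM in hBMSC-CM with quizartinib. The vehicle libraries of the 2 media overlapped, RPMI with quizartinib was lowest, and hBMSC-CM with quizartinib lay between. ITGB2 fell by 1.38 on the log2 scale with the drug in RPMI (adjusted p = 3.99e-17), to 0.385 of its level, and by 0.46 in hBMSC-CM (adjusted p = 6.37e-09), to 0.726 of its level. The interaction of 0.92 ± 0.061 (adjusted p = 9.26e-11) stood beside a difference between the media in drug-treated cells of 0.91 (adjusted p = 1.15e-13). With vehicle the media differed by -0.01 (95% interval -0.097 to 0.080, adjusted p = 0.900). The antisense gene ITGB2-AS1 overlaps ITGB2 and had 0.634 to 1.83 CPM per library, here without scaling by TMM factors. How reads were assigned by strand is not given in the sources used here.

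ITGAM (chr16:31259967-31332892, plus strand), the alpha chain of Mac-1, was low throughout: 23.6, 21.7 and 22.6 CPM in RPMI with vehicle, 10.6, 11.4 and 11.9 CPM in RPMI with quizartinib, 22.0, 19.3 and 23.1 CPM in hBMSC-CM with vehicle, and 22.4, 18.7 and 23.5 CPM in hBMSC-CM with quizartinib. The RPMI quizartinib libraries lay below those of the other 3 groups, which overlapped. ITGAM fell by 1.01 on the log2 scale with the drug in RPMI (SE 0.088, adjusted p = 1.00e-09). In hBMSC-CM the difference was 0.00, with a 95% interval from -0.171 to 0.172 (adjusted p = 0.994), and the interaction was 1.01 (adjusted p = 6.93e-07). With the drug present ITGAM was 1.91-fold higher in hBMSC-CM than in RPMI (log2 0.93, adjusted p = 7.47e-09), and with vehicle the media differed by -0.07 (95% interval -0.242 to 0.096, adjusted p = 0.528).

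ITGAX (chr16:31355134-31382999, plus strand), which encodes the alpha chain CD11c, lies next to ITGAM on chromosome 16 and followed another course. Its level was 14.5, 15.3 and 17.1 CPM in RPMI with vehicle, 19.9, 19.4 and 19.2 CPM in RPMI with quizartinib, 13.0, 11 and 13.2 CPM in hBMSC-CM with vehicle, and 23.9, 24 and 25.2 CPM in hBMSC-CM with quizartinib. No group overlapped another, and hBMSC-CM held both the lowest and the highest libraries. ITGAX rose with the drug 1.25-fold in RPMI (log2 0.33 ± 0.075, adjusted p = 4.97e-04) and 1.95-fold in hBMSC-CM (0.96 ± 0.077, adjusted p = 6.44e-10), an interaction of 0.64 (adjusted p = 5.76e-05). The stromal medium lowered it by 0.32 on the log2 scale with vehicle (adjusted p = 0.00460) and raised it by 0.32 with quizartinib (adjusted p = 5.00e-04).

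**Figure D2:**
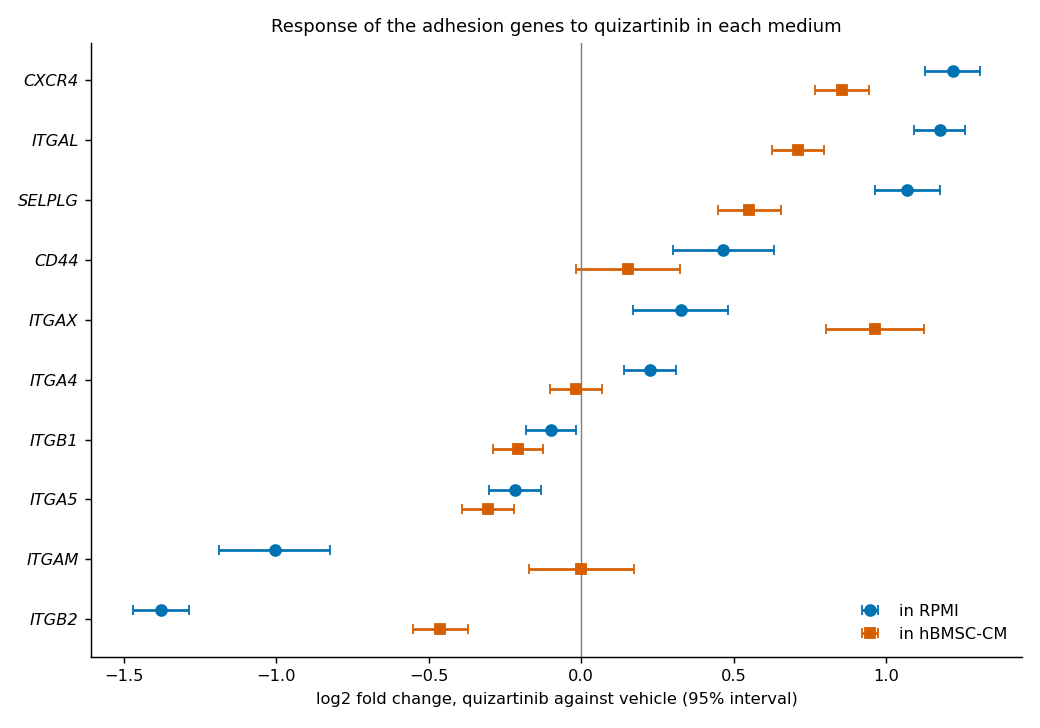
Log2 fold change of each gene with quizartinib against vehicle (x axis) in RPMI (circles) and in hBMSC-CM (squares), with 95% intervals from edgeR, ordered from top to bottom by the value in RPMI. CXCR4, ITGAL and SELPLG rose less in hBMSC-CM than in RPMI, ITGAX rose more, ITGB2 fell less, and the value of ITGAM in hBMSC-CM was 0.00.

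Because an integrin is a pair, the chains were set against each other within each library, as CPM per kilobase of the canonical GENCODE transcript. The ratio of ITGAL to ITGB2 mRNA was 0.720, 0.731 and 0.756 in RPMI with vehicle, 4.46, 4.31 and 4.19 in RPMI with quizartinib, 0.449, 0.413 and 0.424 in hBMSC-CM with vehicle, and 0.919, 1.01 and 0.974 in hBMSC-CM with quizartinib. The 4 groups did not overlap. The drug raised this ratio 5.88-fold in RPMI and 2.26-fold in hBMSC-CM (exact permutation test, two-sided, p = 0.1 for each, the smallest that 3 libraries against 3 allow). ITGAX to ITGB2 went from 0.0222 ± 0.00238 to 0.0720 ± 0.00419 with the drug in RPMI and from 0.0178 ± 0.00198 to 0.0480 ± 0.00228 in hBMSC-CM (SD, n = 3). ITGAM fell with ITGB2 in RPMI, and their ratio was 0.0317 ± 0.00114 with vehicle and 0.0411 ± 0.000851 with quizartinib there, beside 0.0303 ± 0.00315 and 0.0417 ± 0.00343 in hBMSC-CM. The ITGA5 to ITGB1 ratio had group means from 0.613 to 0.677, and ITGA4 to ITGB1 had group means from 0.554 to 0.814, with its highest value in RPMI with quizartinib. For all 42 comparisons of 7 ratios between groups the smallest possible p was 0.1, so none could pass a threshold of 0.05.

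**Figure D3:**
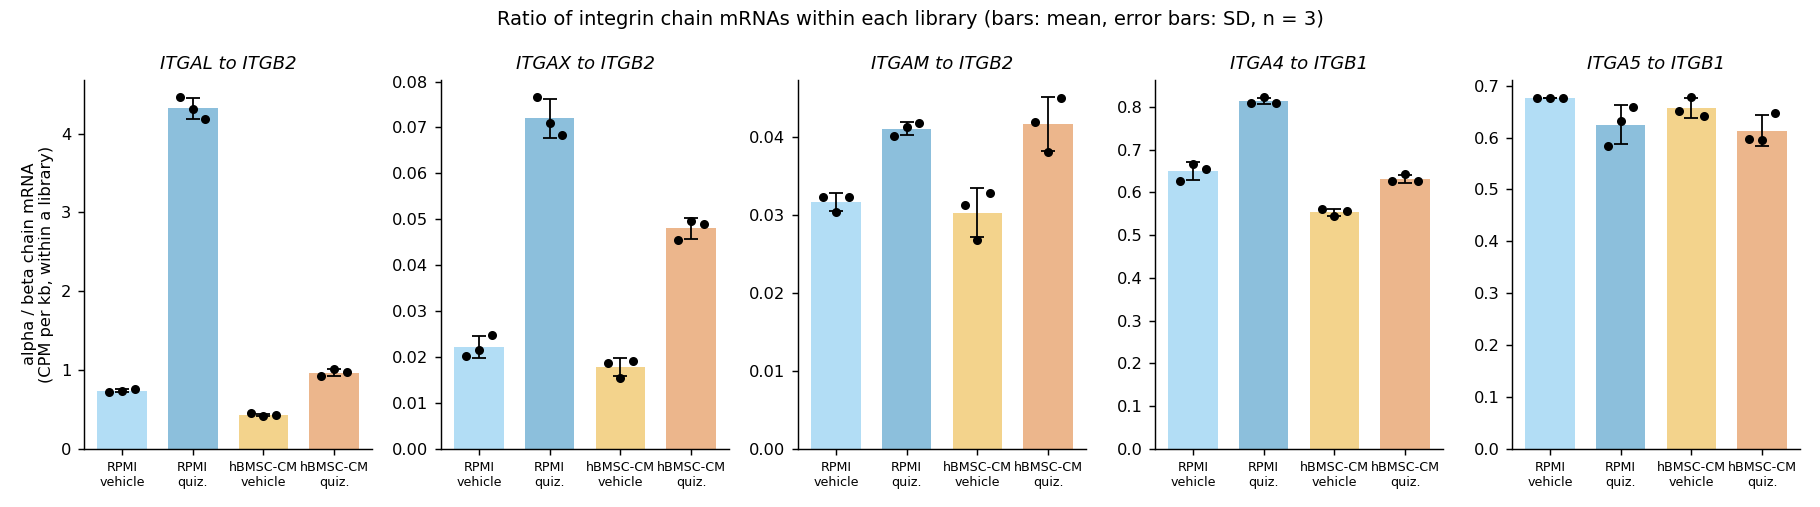
Ratio of alpha chain to beta chain mRNA within each library, as CPM per kilobase (y axis, linear from 0), for 5 integrin pairs in the 4 groups (x axis), with points for the libraries, bars for the mean and error bars for the SD. The ITGAL to ITGB2 ratio was 4.19 to 4.46 in RPMI with quizartinib and at most 1.01 in the other groups.

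Per kilobase of transcript, ITGAL had the highest mean level over the 12 libraries, at 133 CPM per kilobase, followed by ITGB2 at 117 and CXCR4 at 102. ITGB1 (56.4), SELPLG (43.6), ITGA4 (36.9) and ITGA5 (36.2) formed a middle range, and CD44 stood at 14, near the median of 10.8 over the 11605 tested genes with a length. ITGAM (4.07) and ITGAX (3.86) were lowest. The order of the first members changed with the group: in hBMSC-CM with vehicle ITGB2 was at 150 ± 2.07 and ITGAL at 64.3 ± 2.14 CPM per kilobase, and in RPMI with quizartinib ITGAL was at 251.1 ± 1.70 and ITGB2 at 58.2 ± 2.14. A length taken from the canonical transcript misstates the level where another form is made, as may hold for CD44.

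Of the 19 other human integrin chains on the list, only 5 passed the filter on low counts. With quizartinib in RPMI 4 of them rose, where 40.1% of all tested genes did, and the fifth, ITGB4, was not called. ITGB7, which pairs with ITGA4 or ITGAE in gut-homing integrins, rose from 63.3 ± 0.530 to 154 ± 5.70 CPM in RPMI (log2 1.28, adjusted p = 8.12e-16) and from 52.1 ± 2.24 to 102 ± 6.62 CPM in hBMSC-CM (log2 0.98, adjusted p = 8.29e-13). ITGAE rose from 10.9 ± 0.834 to 15.4 ± 1.18 CPM in RPMI, and its value in hBMSC-CM was 0.15 (adjusted p = 0.148). Of the beta chains that ITGA4 can pair with, ITGB7 rose with the drug in each medium. ITGB1 fell in hBMSC-CM and was at -0.20 to 0.00 in RPMI, depending on the scaling and the filter.

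Of 32 genes of integrin activation and of the link to actin, 27 were tested. With quizartinib in RPMI 14 rose and 7 fell (median log2 0.14), and in hBMSC-CM 16 rose and 6 fell (median 0.17). Of all tested genes, 40.1% rose and 39.2% fell in RPMI, and 33.4% rose and 33.7% fell in hBMSC-CM. FYB1, the adaptor ADAP of inside-out signalling, rose from 23.8 ± 1.53 to 81.9 ± 2.6 CPM in RPMI and from 29.7 ± 2.10 to 76.9 ± 3.43 CPM in hBMSC-CM. PARVB, which joins ILK to actin, fell from 42.1 ± 2.35 to 15.3 ± 1.01 CPM in RPMI (log2 -1.47, adjusted p = 4.40e-15) and from 51.8 ± 1.04 to 35.2 ± 0.867 CPM in hBMSC-CM. RAC2, the blood cell Rac GTPase, fell from 266 ± 11.6 to 126 ± 2.66 CPM in RPMI and from 234 ± 13.6 to 200 ± 5.67 CPM in hBMSC-CM. The interactions of PARVB (0.91, adjusted p = 1.56e-08) and RAC2 (0.85, adjusted p = 1.10e-09) were called, with smaller falls in hBMSC-CM.

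Among 34 integrin ligands and other adhesion receptors 23 were tested. Of these, 10 rose and 9 fell with quizartinib in RPMI (median log2 0.01), beside 40.1% and 39.2% of all tested genes. CD226, a receptor for nectins, rose from 17.0 ± 0.434 to 38.2 ± 1.33 CPM in RPMI and from 25.7 ± 1.15 to 54.0 ± 2.54 CPM in hBMSC-CM. CD37, a tetraspanin of leukocytes, rose from 53.1 ± 2.32 to 117 ± 6.31 CPM in RPMI. NECTIN2, a ligand of CD226, fell from 27.1 ± 1.89 to 13.7 ± 1.05 CPM in RPMI (log2 -0.98, adjusted p = 9.18e-10), and in hBMSC-CM its value was -0.05 (adjusted p = 0.590). CD151, a tetraspanin that partners laminin-binding integrins, fell in both media, from 49.3 ± 3.49 to 30.9 ± 2.94 CPM in RPMI. With the drug present, hBMSC-CM had 14 of the 23 genes higher and 6 lower (35.5% and 34.3% of all tested genes). The median log2 was 0.37 against 0.00 over all genes.

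**Figure D4:**
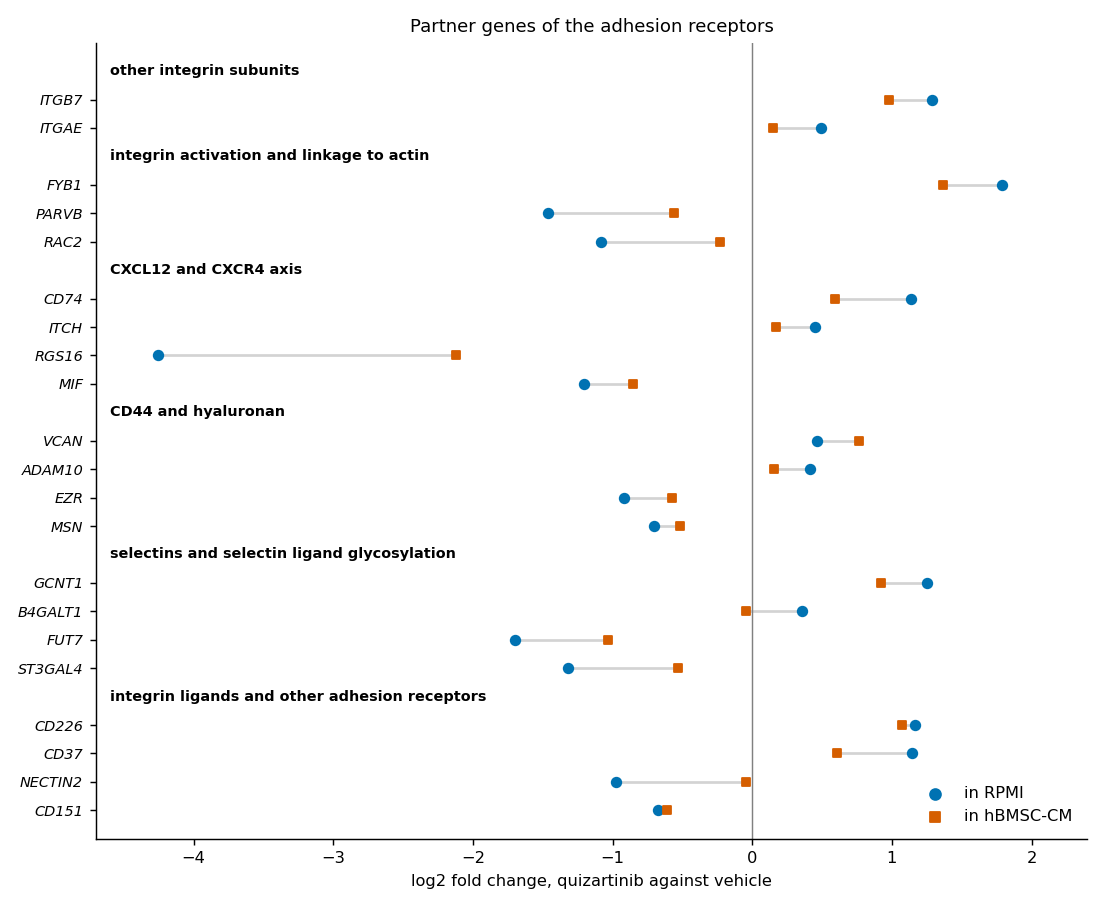
Log2 fold change with quizartinib against vehicle (x axis) of named genes of 6 lists (y axis) in RPMI (circles) and hBMSC-CM (squares), joined by a line for each gene. RGS16 lay at -4.25 in RPMI and -2.12 in hBMSC-CM, and ITGB7, FYB1, GCNT1 and CD226 lay above 0 in both media.

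In the ranking of the 4 groups, CXCR4 and SELPLG shared the order of their lower places, RPMI with vehicle below hBMSC-CM with vehicle, both below the quizartinib groups. For CXCR4, CD44, SELPLG, ITGA4, ITGAL, ITGAM, ITGB1 and ITGB2 at least 1 pair of neighbouring groups was not called different. ITGA5 and ITGAX had neighbours that were all called different. Comparing hBMSC-CM with quizartinib directly with RPMI with vehicle, 5 of the 10 members were called, 3 higher (CXCR4, SELPLG and ITGAX) and 2 lower (ITGB2 and ITGA5), where 62.1% of all tested genes were. Comparing hBMSC-CM with vehicle with RPMI with quizartinib, all 10 were called, 4 higher and 6 lower, where 82.5% of all tested genes were. Libraries did not overlap for 6 members and 66.35% of all tested genes in the former comparison, and for 10 members and 82.4% in the latter. These comparisons share groups with the others.

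Across the 12 libraries, which share 4 groups and so are not independent points, CXCR4 and SELPLG varied together (Pearson's r of log2 CPM 0.954), as did ITGAM and ITGB2 (0.932), while ITGAL and ITGB2 varied inversely (-0.904). Over 9287 genes that averaged 10 CPM or more, the pattern of CXCR4 was most like those of IL10RA (r = 0.997), HLA-DMA (0.995) and SEL1L3 (0.994). ITGB2 was most like WDR77, MCM3 and MCM4 (each 0.998), and MCM3 and MCM4 encode subunits of the replicative helicase. ITGAL was most like AC119396.1 (0.997), DELE1 (0.996) and MYO18A (0.995), and ITGAM most like RBMS1 (0.987), MARVELD1 (0.981) and GATD1 (0.980). For ITGAX the nearest were PARVG (0.980), which encodes the parvin of blood cells, GABPB1-AS1 (0.979) and CCNL2 (0.972). ITGB1 was most like LINC00662 (0.979), LAMC1 (0.974) and C1ORF43 (0.969). For SELPLG they were SLC8B1 (0.986), SLC43A2 (0.985) and PPARA (0.983), for CD44 DCAF7 (0.979), HNRNPA1 and PI4KA (0.976 each), for ITGA4 SKIL (0.960), UBR1 (0.955) and APOOL (0.952), and for ITGA5 ZDHHC3 (0.982), SCD5 (0.975) and PTDSS1 (0.968).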

How the data were processed

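Total RNA from MOLM-13 cells was poly-A selected and sequenced as paired ends. Per the methods, adapters were trimmed with BBDuk and reads were aligned to the human genome (hg38) and counted per gene with STAR v2.6.0a. The authors deposited raw counts per gene name, with IDs that share a name summed. Groups and replicate numbers were taken from the labels, and no library was left out.

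From these counts, genes with a mean count and a mean CPM of at least 1 were kept (12998), libraries were scaled by TMM, and all 12 libraries were fitted in 1 model of 4 group means with edgeR 4.0.16 (R 4.3.3, glmQLFit and glmQLFTest, two-sided). The interaction tests the difference between the drug responses in the 2 media. Adjusted p-values are Benjamini-Hochberg values over all tested genes. limma 3.58.1 and DESeq2 1.42.0 served as alternatives, with other scalings, other filters, a replicate block and each library left out. On simulated counts for quizartinib against vehicle in RPMI (12998 genes), 187 of 200 changed genes were recovered (69 of 81 at a log2 change of 0.5, 56 of 57 at 1 and 62 of 62 at 2), and 13 of 12798 unchanged genes were called. In the data 79.3% of tested genes were called in this comparison. The simulation changed far fewer, so it cannot show how the scaling behaves when most genes change. Coordinates and lengths come from GENCODE (GRCh38), promoter letters from RefSeq.

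The members and the gene lists were chosen with earlier results of these data known. Genes named from a list were the 2 largest called increases and the 2 largest called decreases with quizartinib in RPMI at a mean CPM of at least 10, besides CXCL12 and ACKR3 and the 3 genes most like each member by Pearson's r. A gene that this rule names in the list of integrin activation is not reported here. Other genes were named after their values were seen. Replicate pairs within a group differed by more than counting noise (chi-square per gene 2.66 to 10.5 over 12 pairs), so none was a repeat read of the same library. These values cannot tell libraries of separate cultures from separate libraries of the same culture. Intervals and limits for 0 counts cover counting error or the spread between libraries only.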

Additional observations from a re-analysis of the deposited data

Results flagged for a closer look

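The response to quizartinib differed between RPMI and hBMSC-CM, by a test of the difference itself (edgeR's interaction term, adjusted over all 12998 genes), for 8 of the 10 members, and 45.2% of all tested genes met the same criterion. The log2 response in hBMSC-CM was lower than that in RPMI for CXCR4 (-0.36), CD44 (-0.31), SELPLG (-0.52), ITGA4 (-0.24) and ITGAL (-0.47), each of which rose with the drug in RPMI. It was higher for ITGAM (1.01), ITGAX (0.64) and ITGB2 (0.92). The call of CD44 was lost with limma-trend (adjusted p = 0.0505) and without some single libraries. That of ITGA4 was lost without a filter on low counts (adjusted p = 0.0579). ITGAM and ITGB2 fell with the drug in RPMI, and ITGAX rose in both media. The cause was not tested.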

How the results depend on the processing

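Of 50 values (10 members in 5 comparisons), 43 kept their call and direction, or their lack of a call, in every other setting run (10, or 9 for the interactions, to which a fit of only the groups compared does not apply) and with each of the 12 libraries left out. The cause was not tested for the other 7. ITGB1 with quizartinib in RPMI turned from -0.10 to 0.00199 (adjusted p = 0.965) with upper-quartile factors. Its call was also lost with library size only (-0.01) and at a mean CPM of at least 5 (-0.05). Without a filter on low counts its value there was -0.20 (adjusted p = 1.03e-04). CD44 with quizartinib in hBMSC-CM gained a call with library size only (0.26), with upper-quartile factors (0.24) and at a mean CPM of at least 5 (0.20), its interaction lost it with limma-trend (-0.30), and without a filter CD44 gained one between the media with vehicle (-0.15), SELPLG gained one between the media with quizartinib (0.14) and the interaction of ITGA4 lost its own (-0.17). ITGA5 between the media with quizartinib lost its call with upper-quartile factors (0.07). Upper-quartile factors moved the median of all genes by 0.10 (log2) with quizartinib in RPMI, and library size only moved it by 0.10 in hBMSC-CM. There 49.8% of called genes were higher with TMM factors, 62.8% with library size only and 60.0% with upper-quartile factors.

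Replicate numbers did not pair the libraries: same-numbered libraries of different groups had correlations of deviations from -0.228 to 0.098 over 18 pairs, none of them above 0.1, and 0 of 12 libraries were closest to their own number. A fit with the replicate block called 10224 genes with quizartinib in RPMI (10307 without it), 8611 in hBMSC-CM (8722), 8962 for the media under quizartinib (9076), 3953 under vehicle (4174), and 5679 (5881) for the interaction; it changed no call of a member. With 3 libraries a group, the members' median standard error of a log2 difference was 0.0427 to 0.0434 in the comparisons of 2 groups. At that error, changes near 0.1 were at the limit of what could be called. For CD44, ITGAM and ITGAX the standard error was 0.072 to 0.089, and the limit lay higher.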
